A study of Homo sapiens with 2 samples.

Results

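Many 60-base probes on the array overlapped in sequence, and their pairs show how far separate probes gave like values. A pair was formed by different probes that were not controls, whose names start with A_ (the Agilent catalogue) or CUST_H6L (a second custom series), and whose listed sequences share 25 or more consecutive bases on the same strand. The rule used sequence only and no measured value. It gave 2386 pairs, built from 3329 of the 116953 linear probes, which in turn were part of 138405 probes of all kinds. "Linear" is a working name for probes of these name series, not an annotation. Of the member probes, 1149 were from the catalogue and 2180 from the custom series.

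HepG2 is an established human liver cancer cell line. Cells received either a scrambled siRNA (NC) or a mixture of 3 siRNAs against FOXA1 (siFOXA1), both delivered with Lipofectamine RNAiMAX, and total RNA was taken after 48 h. Each condition was read in Cy3 on 1 array, and both arrays were on 1 slide, so no difference between NC and siFOXA1 has a replicate check and no p-value is given for one. No probe carried a gene name in the columns used here, so the level of FOXA1 and of liver marker genes was not analysed here, and probes are described by name and sequence.

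FOXA1 is a pioneer transcription factor that can bind its sites in closed chromatin and open them to other factors, and it is known for its part in liver gene regulation. A small interfering RNA lowers a transcript by guiding its cleavage. On an expression array, the brightness of a probe follows both the amount of labelled RNA that pairs with it and how well that probe's own bases hybridise, whereas the ratio of 2 arrays for 1 probe mostly cancels the latter. Probes that overlap on one strand can bind 1 transcript at neighbouring positions, or transcripts of related genes and repeats.

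The pairs fell into 4 arrangements. In 104 pairs the sequences were identical over all 60 bases, and 101 of these lay within the custom series. In 345 pairs 1 probe was the other one shifted along the same sequence, with a median shared stretch of 41 bases. In 1462 pairs, called near-copies, at most 20% of the aligned bases differed, with a median of 4 mismatches. The aligned bases include the shared stretch, so the bases beside it need not match. In A_21_P0010155 and A_21_P0010307, 39 of 43 aligned bases are shared in 1 stretch and the other 4 all differ. In the remaining 475 pairs over 20% of the aligned bases differed, with a median of 15 mismatches, and these are called partly alike. By shared stretch, 915 pairs shared 25 to 29 bases, 823 shared 30 to 39 and 648 shared 40 to 60. By source, 355 pairs lay within the catalogue, 739 joined a catalogue and a custom probe, and 1292 lay within the custom series. Of the catalogue probes with names starting A_21, 6.63% were members, against 0.621% of those starting A_22 and 2.75% of the custom series.

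The following sequences are of the pairs with the largest change seen by both probes in each source combination, with the stretch the probes share in capitals. They show how a change was read by separate probes, which differ in position, in single bases or in the bases outside the shared stretch. The first 3 pairs, and the identical pair after them, were lower in siFOXA1.
A_21_P0010155: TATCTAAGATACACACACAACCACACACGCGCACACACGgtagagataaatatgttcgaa
A_21_P0010307: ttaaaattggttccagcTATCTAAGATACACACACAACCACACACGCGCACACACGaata
A_24_P261567: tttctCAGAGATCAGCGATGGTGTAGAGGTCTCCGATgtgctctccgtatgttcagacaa
CUST_H6L_15309: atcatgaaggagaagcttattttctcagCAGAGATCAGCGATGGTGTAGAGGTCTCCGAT
CUST_H6L_16068: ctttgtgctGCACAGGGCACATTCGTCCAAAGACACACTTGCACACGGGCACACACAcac
CUST_H6L_29172: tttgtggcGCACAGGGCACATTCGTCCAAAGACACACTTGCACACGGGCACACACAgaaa
CUST_H6L_16584 and CUST_H6L_41134: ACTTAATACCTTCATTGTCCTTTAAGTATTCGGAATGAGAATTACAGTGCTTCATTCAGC

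The next pairs were higher in siFOXA1, and the last of them was among the brightest pairs on the array. A_23_P144896 and CUST_H6L_27625 are 1 sequence shifted by 4 bases, while the other pairs are near-copies.
A_24_P358305: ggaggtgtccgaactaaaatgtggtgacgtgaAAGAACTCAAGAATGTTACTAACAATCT
A_24_P82880: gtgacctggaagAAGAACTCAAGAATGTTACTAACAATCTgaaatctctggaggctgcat
A_23_P144896: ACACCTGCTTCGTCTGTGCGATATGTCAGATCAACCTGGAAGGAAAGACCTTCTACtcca
CUST_H6L_27625: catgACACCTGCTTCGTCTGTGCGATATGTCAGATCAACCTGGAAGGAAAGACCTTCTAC
CUST_H6L_21970: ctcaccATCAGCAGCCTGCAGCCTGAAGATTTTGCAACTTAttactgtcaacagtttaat
CUST_H6L_21985: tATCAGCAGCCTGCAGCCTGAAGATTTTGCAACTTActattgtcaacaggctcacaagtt
CUST_H6L_00605: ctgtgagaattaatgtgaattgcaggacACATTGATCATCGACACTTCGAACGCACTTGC
CUST_H6L_01409: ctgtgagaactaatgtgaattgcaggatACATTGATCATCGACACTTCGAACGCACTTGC

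The last set holds pairs whose probes differed. CUST_H6L_21960 differed from CUST_H6L_21970 in its change, as did A_33_P3354823 from CUST_H6L_08455, while the remaining pairs differed in their NC signal. CUST_H6L_21960 shares its capitals with bases 29 to 53 of CUST_H6L_21970 above. CUST_H6L_22226 and CUST_H6L_22247 differ by 1 base of 60, the last base before the capitals.
CUST_H6L_21960: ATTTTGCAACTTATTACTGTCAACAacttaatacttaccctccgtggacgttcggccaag
A_33_P3354823: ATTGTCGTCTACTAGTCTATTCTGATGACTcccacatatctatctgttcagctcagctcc
CUST_H6L_08455: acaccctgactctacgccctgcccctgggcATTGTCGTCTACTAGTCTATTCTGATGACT
A_33_P3293798: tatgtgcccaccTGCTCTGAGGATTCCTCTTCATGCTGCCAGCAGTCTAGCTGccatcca
A_33_P3334877: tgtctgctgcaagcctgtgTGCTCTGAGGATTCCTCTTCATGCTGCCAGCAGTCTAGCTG
CUST_H6L_22226: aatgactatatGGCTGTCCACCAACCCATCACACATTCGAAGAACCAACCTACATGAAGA
CUST_H6L_22247: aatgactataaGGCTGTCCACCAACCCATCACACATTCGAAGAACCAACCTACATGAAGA

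Member probes were brighter and more often detected than linear probes as a whole. Detection means that the scanner software called at least 50% of a probe's unflagged spots well above background. On NC 70.8% of the member probes were detected, against 56.2% of all linear probes, and on siFOXA1 the shares were 70.5% and 55.1%. Within the catalogue the gap was small, 70.9% against 67.4% on NC, and within the custom series it was wide, 70.7% against 50.9%. Over probes detected on both arrays, the median NC signal was 334 for members and 99.7 for all linear probes. Signals are background-corrected intensities in scanner units. The median GC content was 43.3% in both, no spot of a member was saturated, and the 75th percentile of the spots, which scales each array, was 106 on NC and 91.7 on siFOXA1.

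Both probes of a pair were mostly detected together. On NC both were detected in 1676 pairs, neither in 442 and 1 of them in 268. Where a probe was detected, its partner was detected in 92.6% of cases. The share of pairs with 1 detected probe was 0.962% for identical pairs, 9.37% for near-copies, 9.86% for shifted tiles and 20.2% for partly alike pairs. In 222 pairs 1 probe was detected on both arrays and the other on neither. The detected probe of these had a median NC signal of 37.5, and 71 of them were above 100.

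Taken over all pairs, signals of a pair were closer the longer the shared stretch. Over pairs with both probes detected on NC, the NC signals lay within 2-fold in 49.4% of the pairs sharing 25 to 29 bases (343 of 694, 95% Wilson interval 45.7% to 53.1%). The share was 64.7% for 30 to 39 bases (372 of 575, 60.7% to 68.5%) and 86.0% for 40 to 60 bases (350 of 407, 82.3% to 89.0%). The median fold between the probes fell from 2.02 to 1.56 and 1.21. Intervals cover the counting of pairs only, and since pairs can share a probe they are too narrow. With 1 pair taken per group of linked probes, the shares were 48.8%, 67.5% and 89.6%. Without the identical pairs the share for 40 to 60 bases was 83.7%. Near-copies and partly alike pairs each kept the order of the lengths. Shifted tiles gave 60.0%, 55.2% and 89.1%, so there it did not hold between 25 to 29 and 30 to 39 bases. The rank correlation of NC signals across pairs, each entered in both orders, was 0.71, 0.83 and 0.94, and all of these points come from 1 array.

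The source of the probes made less difference than the length of overlap. All pairs together gave 63.5% within 2-fold, with 64.3% within the catalogue, 66.2% between catalogue and custom probes and 61.9% within the custom series, and the 3 intervals overlapped. In each of these source combinations the share was lowest for 25 to 29 bases and highest for 40 to 60 bases. In the custom series it went from 47.4% to 62.5% and 87.7%, and in the catalogue from 51.1% to 67.1% and 81.0%. Before the filter on detection, the class of 40 to 60 bases held 101 identical pairs in the custom series and 1 in the catalogue. The 87.7% and 81.0% are therefore not like for like. Of the 134 custom pairs whose numbers follow one another 67 had both probes detected on NC, and these gave 73.1% (49 pairs, 95% interval 61.5% to 82.3%), against 61.1% of 873 (57.8% to 64.2%) for other custom pairs.

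The arrangement separated the pairs further. Identical pairs had a median fold of 1.08 between their NC signals and 97.1% lay within 2-fold, the widest pair differing by 2.14-fold. Shifted tiles gave 74.5%, near-copies 63.6% and partly alike pairs 46.3%. Among shifted tiles the share was 96.2% for shifts of 1 to 5 bases (26 pairs), 93.0% for 6 to 10 (43 pairs), 83.1% for 11 to 20 (59 pairs) and 57.0% for 21 to 35 (107 pairs). Neither end was favoured, as the downstream tile was the brighter one in 123 of 235 pairs, with a median difference of 0.04 on the log2 scale.

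Pairs aligned without a shift showed what substitutions went with. With 0 mismatches the median difference of NC signals was 0.10 on the log2 scale (69 pairs). With 1 mismatch it was 0.60 (12 pairs, from 0.04 to 3.59), with 2 it was 0.36 (15 pairs), with 3 it was 0.78 (12 pairs), with 4 it was 0.52 (22 pairs) and with 5 or 6 it was 0.31 (33 pairs). Every class with mismatches was above the identical pairs, without a steady order from 1 to 6, and with 7 or more mismatches the median was 1.24 (64 pairs). The classes of 1 to 3 hold few pairs each.

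Among pairs sharing 40 or more bases with both probes detected on NC, the following 4 had the largest NC differences. A_33_P3293798 had a signal of 659 on NC and 587 on siFOXA1, while A_33_P3334877, which shares 41 bases with it, had 18.1 and 13.1. CUST_H6L_22226 had 1435 and 874, while CUST_H6L_22247, with 1 mismatch in 60, had 119 and 87.9. In both pairs the order of the probes was the same in NC and siFOXA1. The other 2 pairs were CUST_H6L_37293 with CUST_H6L_37294, 10.70-fold apart, and A_21_P0011566 with CUST_H6L_33123, 9.88-fold apart. Wider gaps occurred where 1 probe was not well above background. In a pair picked after its values were seen, A_33_P3268919 had 2.35 on NC, not well above background, and A_33_P3344574, 51 bases of which it shares, had 24597.

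Probes of a pair mostly gave close changes between the arrays. The change is the log2 of siFOXA1 over NC after each array was divided by its 75th percentile. Over the 1639 pairs with both probes detected on both arrays, the changes of the probes lay within 1.4-fold of each other in 95.3% (1562 pairs, 95% Wilson interval 94.2% to 96.2%), with a median difference of 0.08. The share was 95.5%, 95.6% and 94.5% for 25 to 29, 30 to 39 and 40 to 60 shared bases. Most probes changed little, with quartiles of -0.30 and 0.16 over the probes of these pairs, so that these shares are near their ceiling and cannot rank the lengths or be set against the shares for signals. By arrangement it was 96.0% for near-copies, 95.7% for partly alike pairs, 94.1% for identical pairs and 92.0% for shifted tiles. Across the 1639 pairs, each entered in both orders, the Pearson correlation of the changes was 0.85 and the Spearman correlation 0.81, and these points share the same 2 arrays. The changes of 1404 pairs (85.7%) had the same sign.

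What went with disagreement in the change was low signal. Where the dimmer probe had an NC signal under 30, the changes lay within 1.4-fold of each other in 69.9% of 133 pairs, with a median difference of 0.34. The share was 90.2% of 255 pairs from 30 to 100, 98.3% of 635 pairs from 100 to 1000 and 99.8% of 616 pairs from 1000 upward, where the median difference was 0.05. Identical pairs were dim, with a median NC signal of 78.5, and 4 of their 68 pairs differed by more than 1.4-fold, whereas all 29 with a dimmer probe of at least 100 stayed within it.

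Identical pairs also gave the spread between separate spots of 1 sequence. Their changes differed by a median of 0.11 on the log2 scale, and by 0.62 at the 95th percentile. The widest was CUST_H6L_11756 with CUST_H6L_57632, which went from 13.2 to 26.8 and from 23.0 to 15.6, a change of 1.23 against -0.35 for the same 60 bases, or 0.41 against -0.0041 with normexp. In 4 pairs both probes were printed 10 times and detected on both arrays, and there the spots gave an error. A_23_P400465 and A_24_P127121 changed by 0.38 ± 0.02 and 0.36 ± 0.02 (SE over spots), and A_23_P50897 and A_33_P3402763 by -0.26 ± 0.02 and -0.29 ± 0.02. In all 4 pairs the changes differed by less than 0.1, and this error covers spots of 1 array and not separate cultures.

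With percentile scaling, changes seen by both probes were about as frequent in either direction. In 65 pairs both probes were lower in siFOXA1 by at least 1.4-fold, and in 67 pairs both were higher. These came from 56 and 54 groups of linked probes. Fewer pairs held under percentile, normexp and quantile settings together, 38 lower pairs from 31 groups and 43 higher pairs from 32. The counts that follow are again with percentile scaling unless another setting is named. In 166 pairs 1 probe was past 1.4-fold and the other was not, and in 146 of these the other had the same sign. No pair with both probes detected on both arrays had its probes past 1.4-fold in opposite directions. The count was also 0 with median, quantile, cyclic loess and normexp settings and in the authors' matrix, whereas it was 2 with no scaling, 1 with spike-in scaling, 34 with no filter on dim probes and 10 at a threshold of 1.2-fold. Of all 62059 linear probes detected on both arrays, 9.39% were lower and 9.54% were higher by 1.4-fold. Of the 2113 probes in the fully detected pairs 8.71% were lower and 8.33% higher, which is near that background.

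Partners of called probes mostly moved the same way, though often by less than 1.4-fold, counting each pair from both sides. A called probe with several partners counts once for each. The 225 cases of a lower probe come from 184 probes and the 205 of a higher probe from 176. Cases from 1 linked group are not independent, and differences between the shares were not tested. Where a probe was lower, the partner was lower by 1.4-fold too in 57.8% of 225 cases and had the same sign in 96.0%. Where a probe was higher, the partner was also higher in 65.4% of 205 cases and had the same sign in 94.6%. The share of partners also called varied between kinds of pairs. For lower probes it was 40.9% within the custom series (38 of 93), 65.1% between catalogue and custom probes and 77.6% within the catalogue (38 of 49). For higher probes the order was not the same, with 66.7% within the custom series (68 of 102), 67.6% between catalogue and custom probes and 55.2% within the catalogue (16 of 29). In identical pairs the share was 80.0% for lower probes (8 of 10) and 28.6% for higher probes (4 of 14). The median change of the partner was -0.55 where the called probe's own median was -0.63, and 0.63 where it was 0.80. In the 166 pairs with 1 call, the median size of the change was 0.57 in the called probe and 0.35 in the other, on either side of the threshold of 0.49.

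The split between lower and higher pairs depended on how the arrays were scaled. Of the pairs called in 1 direction, 49.2% were lower with percentile scaling. With median scaling there were 83 lower and 56 higher (59.7% lower), while 10.8% of all linear probes were lower and 8.47% higher. With normexp background correction there were 68 and 44 (60.7% lower), beside 3.92% and 3.50% of all linear probes. The linear probes as a whole thus shifted with the setting too. With no scaling there were 353 lower and 42 higher pairs, beside 20.8% and 5.16% of all linear probes, and with scaling on the E1A spike-in probes 1057 and 24, beside 60.1% and 2.24%. Over all probes, the median change was shifted by -0.54 with spike-in scaling, by -0.21 with no scaling and by -0.12 with quantile normalization. Over the probes detected on both arrays the last shift was 0.01. The changes below are relative to percentile scaling, and each pair named for a change in both probes kept its sign under all 8 other scalings and background corrections run. This was partly fixed in advance. Normexp and quantile settings were used to choose these pairs, and the authors' matrix repeats quantile normalization. Taking the percentile over detected probes moved the median change by -0.0025. Median, no and spike-in scaling move every change down alike, so they could not turn a lower pair.

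The largest decrease in both probes was in the custom near-copies CUST_H6L_16068 and CUST_H6L_29172. CUST_H6L_16068 gave a signal of 7570 on NC and 927 on siFOXA1, a change of -2.82. CUST_H6L_29172 gave 8812 and 1121, a change of -2.77. These probes share 48 bases with 4 mismatches over 59, and differed in change by 0.05, close to the median difference of 0.05 over pairs of at least 1000. Under the other settings their changes lay between -3.37 and -2.71.

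Within the catalogue the largest decrease was in A_21_P0010155 and A_21_P0010307. The former had 48531 on NC and 9056 on siFOXA1, and the latter 14014 and 1952. Their changes of -2.22 and -2.64 differed by 0.42, the widest difference among the 65 pairs that were lower. A_23_P54622 and A_33_P3350634, 1 sequence shifted by 10 bases, had 1082 and 1026 on NC and 393 and 394 on siFOXA1, so both were lower to the same extent (-1.26 and -1.18). A_23_P30799 and A_33_P3287879 were bright near-copies with 11684 and 13689 on NC and changes of -1.11 and -1.15.

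Between catalogue and custom probes, A_24_P261567 and CUST_H6L_15309 led with 554 and 199 on NC and 132 and 52.5 on siFOXA1. These are changes of -1.86 and -1.71 from probes whose NC signals were 2.79-fold apart. A_33_P3245126 and CUST_H6L_27950, shifted by 8 bases, changed by -1.13 each. A_33_P3245011 and CUST_H6L_15020 share 34 bases and had NC signals of 201 and 3732, yet changed by -1.11 and -1.34, with an 18.6-fold gap in brightness, and by -0.77 and -1.35 with normexp background correction. In the custom series the identical probes CUST_H6L_16584 and CUST_H6L_41134 had 148 and 161 on NC and 67.2 and 73.2 on siFOXA1, a change of -0.93 each. The near-copies CUST_H6L_21807 and CUST_H6L_32703 followed with -0.83 and -0.86. With normexp the changes of dimmer probes came closer to 0, to -1.07 in CUST_H6L_15309, -0.66 and -0.67 in A_33_P3245126 and CUST_H6L_27950, -0.62 and -0.59 in the identical probes and -0.54 in CUST_H6L_32703.

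The first of these catalogue pairs and the leading custom pair share a sequence feature that the rule did not use. Their shared stretches hold a run of 8 alternating C and A bases (CACACACA or ACACACAC, searched on the listed strand), which 0.373% of all linear probes and 0.360% of the member probes hold. Among fully detected pairs, 4 held such a run in the shared stretch. Besides the 2 above, CUST_H6L_26511 and CUST_H6L_26512 changed by -0.44 and -0.52, and A_33_P3349619 and CUST_H6L_32613 by -0.00037 and 0.06. The complementary run of T and G (TGTGTGTG or GTGTGTGT) was in the shared stretch of 4 fully detected pairs, of which 1 was higher in both probes and none lower, with changes from -0.07 to 0.92. Counted anywhere in both probes it was in 5 pairs, of which 2 were higher in both probes, with changes up to 1.45. The 2 pairs with a run of C and A that were lower in both probes are the pairs the run was described for, so counting them adds nothing. Of all linear probes detected on both arrays, 9.39% were lower and 9.54% higher by 1.4-fold. The called share among all probes holding a run was not counted here. With so few pairs these are values side by side. A motif match is a description of the letters alone.

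The largest increase in both probes was in CUST_H6L_21970 and CUST_H6L_21985. CUST_H6L_21970 rose from 42.9 on NC to 423 on siFOXA1, a change of 3.51. CUST_H6L_21985 went from 18.4 to 194, a change of 3.60. They share 35 bases with 7 mismatches over 55, and belong to a linked group of 6 probes. Of the others, CUST_H6L_21984 went from 39.4 to 294 (3.11), and the catalogue probe A_33_P3281435 from 5.22, not well above background, to 74.4, which makes it at least 10.1-fold higher. The group was not uniform. CUST_H6L_21960, which shares 25 bases with CUST_H6L_21970, had 22.5 and 24.8, a change of 0.35, and CUST_H6L_21979 was not well above background on either array. All of the NC signals in this group were low, and with normexp background correction the changes of CUST_H6L_21970 and CUST_H6L_21985 came down to 2.47 and 1.89.

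Within the catalogue the pair with the largest increase was A_24_P358305 and A_24_P82880. Their NC signals were 195 and 1184 and their siFOXA1 signals 641 and 3760, so probes 6.07-fold apart in brightness rose by 1.92 and 1.87. A_21_P0010553 and A_33_P3389599 rose from 90.2 and 61.1 to 248 and 162 (1.67 and 1.62, or 1.13 and 1.06 with normexp). A_33_P3382634 and A_33_P3394793, shifted by 8 bases, rose by 1.003 and 1.17. Of the 8 other settings, spike-in scaling left this pair short of 1.4-fold in a probe, with a lowest change of 0.46.

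Between catalogue and custom probes, A_23_P144896 and CUST_H6L_27625 led and were close in every value. Their signals were 492 and 493 on NC and 1534 and 1489 on siFOXA1, changes of 1.85 and 1.80. A_33_P3286481 and CUST_H6L_28180, shifted by 7 bases, rose by 1.62 and 1.67. A_24_P143189 and CUST_H6L_21316 share 25 bases end to end and rose by 2.11 and 1.44, so both were higher but to a different extent. In the custom series CUST_H6L_05410 and CUST_H6L_26307 rose by 2.08 and 1.93, and CUST_H6L_22556 and CUST_H6L_51517 by 1.75 and 2.03. With percentile scaling, 26 of the 67 higher pairs had both probes past 2-fold, from 20 linked groups of which 1 gave 5 pairs, and 8 of the 65 lower pairs did, from 8 groups. Of all linear probes detected on both arrays 2.38% were higher and 1.42% lower by 2-fold, so more increases than decreases of that size were also seen in the background.

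Bright probes also changed together in a linked group of 5 custom probes, of which CUST_H6L_00605 and CUST_H6L_01409 were named for their brightness. CUST_H6L_00605 had a signal of 56363 on NC and 120190 on siFOXA1, and CUST_H6L_01409 had 37035 and 85637. These are changes of 1.30 and 1.42 with 2 mismatches over 60 bases. The other members, CUST_H6L_00092, CUST_H6L_01431 and CUST_H6L_01886, were listed after their values were seen and rose by 1.54, 1.65 and 1.53. All 5 stayed above 0 under each other scaling run, the lowest value being 0.76 with the spike-in scaling. A group of 3 catalogue probes, also picked after its values were seen, was brighter on NC than any of these 5 and had lower signals on siFOXA1. A_23_P8013, A_23_P59069 and A_23_P366216 had 106290, 76704 and 78096 on NC and 51671, 36046 and 37604 on siFOXA1, changes of -0.83, -0.88 and -0.85.

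Of the 9 pairs named for their brightness, CUST_H6L_00605 with CUST_H6L_01409 was the 1 past 1.4-fold in both probes. The other 8 had changes from -0.42 to 0.15. The brightest catalogue pair, A_33_P3311646 and A_33_P3392000, had 238260 and 152760 on NC and changes of 0.04 and 0.10. The identical probes A_23_P13899 and CUST_H6L_79397 had 59779 and 55996 on NC and changes of -0.17 and -0.11. The near-copies CUST_H6L_13581 and CUST_H6L_29184 had 115420 and 103140 and changes of -0.17 and -0.25. Over the 8 pairs the changes of the probes were 0.03 to 0.15 apart.

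The pairs whose changes differed most were few. CUST_H6L_21960 and CUST_H6L_21970 were 3.16 apart, as given above. A_33_P3354823 rose from 247 to 810 (1.92), while CUST_H6L_08455, which shares its last 30 bases with the first 30 of the former, had 3663 and 3687 (0.22). Here the dimmer probe was the one that rose, and the partner was 14.8-fold brighter on NC. A_21_P0000573 and A_33_P3294440 share 40 bases and changed by 0.21 and 1.48, from NC signals of 120 and 13.8, and by 0.14 and 0.43 with normexp.

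A few pairs were detected on 1 array only, by both probes. In 6 pairs both were detected on siFOXA1 and not on NC, and in 3 pairs the reverse. The identical probes CUST_H6L_30219 and CUST_H6L_68912 had 49.0 and 44.7 on siFOXA1 and were at least 6.67-fold and 6.08-fold higher there, and CUST_H6L_46694 and CUST_H6L_53195, sharing 28 bases, at least 7.38-fold and 5.45-fold higher. These bounds set the undetected array at the higher of the probe's own signal and the lowest signal called well above background there, 8.48 on NC. The 3 pairs detected on NC only were dim, with NC signals from 11.2 to 21.2. In 2 pairs 1 probe was detected on NC only and the other on siFOXA1 only.

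Chains of overlapping pairs joined the probes into 1436 linked groups, of which 1255 were a single pair and 14 held 10 or more probes. The largest, with 29 probes and 115 pairs, was detected in full on both arrays. Its NC signals ran from 101 to 11071, a 110-fold range, while all 29 changes lay between -0.39 and -0.15. A group of 16 probes, of which 15 were detected on both arrays, had NC signals from 1497 to 8825 and changes from -0.19 to -0.07. None of the probes in these groups was past 1.4-fold. In both groups the changes were below 0 under all 8 other scalings and background corrections. Several of these could not have shown otherwise. Median, no and spike-in scaling and the percentile over detected probes move every change down alike, and the authors' matrix repeats quantile normalization. The highest value of the smaller group was -0.0014 with quantile normalization. In a group of 22 probes 3 of the 20 detected probes were past 1.4-fold, with changes from -0.66 to 0.38, and in a group of 15 custom probes 11 of 12 detected probes were above 0, of which 5 remained above 0 with no scaling and none with spike-in scaling.

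Pairs on opposite strands were less alike. There were 255 pairs of linear probes that share 25 or more bases only after 1 probe is read in reverse complement. Their NC signals lay within 2-fold in 26.0% of 173 detected pairs (95% interval 20.05% to 33.0%), against 63.5% for pairs on one strand, with a median fold of 3.95 against 1.56. The changes lay within 1.4-fold of each other in 81.1% of 164 pairs (74.4% to 86.4%), against 95.3%. In 3 of these 164 pairs both probes were lower, in 13 both were higher and in 1 the probes were called in opposite directions. On one strand 65 and 67 of 1639 pairs were lower and higher. Of all linear probes detected on both arrays, 9.39% were lower and 9.54% higher. The 3 and 13 are few pairs, counted with percentile scaling. The differences between pairs on opposite strands and on one strand were not tested, since pairs that share probes are not independent.

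A search for positions placed few members. Only 6 of the 3329 member probes lie whole within the 300-base windows around RefSeq gene starts on GRCh38.p14, and none of these 6 was well above background on either array.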

How the data were processed

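Intensities of 1 NC and 1 siFOXA1 array were used. The authors deposited spot intensities from Agilent Feature Extraction 10.7.1.1 (version per the file headers), already corrected for background, beside the mean signal, local background and flags. A matrix of log2 values that the authors deposited equals quantile-normalized probe means to within 0.0186 and served as an alternative. Flagged spots were left out (1479 on NC, 1416 on siFOXA1). The processed intensity was put on the log2 scale and centred on its array's 75th percentile over the 175899 spots that were not controls, and a probe's spots were averaged. A probe was called lower below the reciprocal of 1.4 and higher above 1.4. Every pair of probes was compared for its longest shared stretch. Partly alike pairs were separated from near-copies at 20% mismatches over the aligned bases, a division chosen after the sequences were seen.

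Pairs were named 1 per linked group: per source combination and direction, the 3 with the largest smaller change among pairs past 1.4-fold in both probes under percentile, normexp (offset 50) and quantile settings; the 4 whose changes differed most, with both probes detected on both arrays; the 4 sharing 40 or more bases whose NC signals differed most, with both probes detected on NC; and the 3 brightest per source combination. Shared stretches with fewer than 12 different 3-base words were not named. Members and lists were chosen with earlier results of these data known. With 1 array per condition, the number of arrays limits the precision, and shares carry Wilson intervals. Scripts were tested on simulated data with planted overlaps and changes. The tools were R 4.3.3 with limma 3.58.1, and Python 3.11.15 with networkx 3.6.1, scipy 1.17.1, pandas 2.3.3 and numpy 2.4.6. Gene names of probes were not analysed here.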

Additional observations from a re-analysis of the deposited data

How the results depend on the processing

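Of 76 values recomputed under the 16 alternatives, 51 stayed within 1.5 times the count, or within the 95% interval of the share, and 25 did not. Pairs with both probes lower (65) became 417 at 1.2-fold, 8 at 2-fold, 353 with no scaling, 1057 with spike-in scaling by the E1A probes, of which 440 of 600 spots were usable, and 25 over stretches of at least 40 bases. Pairs with both probes higher (67) became 141 at 1.2-fold, 26 at 2-fold, 42 with no scaling, 24 with spike-in scaling, 44 with normexp, 110 with no filter on dim probes and 23 over stretches of at least 40 bases. The counts over longer stretches come from 397 pairs in place of 1639. Pairs called in opposite directions (0) became 10 at 1.2-fold, 2 with no scaling, 1 with spike-in scaling, 1 where detection on at least 1 array was enough and 34 with no filter on dim probes. The share of pairs with NC signals within 2-fold (63.5%) became 69.3% with normexp, 60.3% with no filter, 86.0% over at least 40 bases and 71.0% with 1 pair per linked group. The share with changes within 1.4-fold of each other (95.3%) became 98.7% with normexp, 82.5% with no filter, 93.4% with detection on at least 1 array and 93.7% with 1 pair per linked group. The cause of these moves was not tested, apart from fewer pairs or a different threshold by construction. With 1 pair per linked group, 52 pairs were lower and 52 higher in both probes. A count that stayed alike need not hold the same pairs, as 38 lower and 43 higher pairs held under percentile, normexp and quantile settings together. No paired analysis was possible because NC and siFOXA1 were 1 array apiece. Signal over background also limits the changes: below an NC signal of 30 in the dimmer probe (133 of 1639 pairs), the changes of a pair differed by a median of 0.34 on the log2 scale.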
